A study of Mus musculus with 4 samples.

Results

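The MAPK feedback genes described here are 10 mouse genes that are switched on by signaling through RAS and ERK, most of which code for proteins that restrain that signaling. They are the phosphatase genes Dusp4, Dusp5 and Dusp6, the Sprouty genes Spry1, Spry2 and Spry4, their relatives Spred1 and Spred2, and the transcription factor genes Etv4 and Etv5. They were chosen by name, and every probe set annotated to 1 of these symbols alone was taken, which gave 28 of 45037 probe sets and 10 of 18193 named genes. A gene was read from its lead probe set, the one that was brightest on average over the 4 arrays, where log2 values are the log2 of the MAS5 signal and signals in units are that value unlogged. Of the 28 probe sets, 24 lay among the 33778 that were tested, those whose mean log2 value reached 2.94, the 25th percentile, and all 10 lead probe sets did.

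The arrays profiled 2 cell lines, 8534 and 8542, each derived from a primary mammary tumor of a different female MMTV-tTA/TOP-ICN1 mouse on an FVB/N;B6 background. In these mice the MMTV promoter, active in mammary epithelium, drives the tetracycline transactivator (tTA), which in turn drives human ICN1, the active intracellular part of NOTCH1, until doxycycline stops it. RNA was taken from untreated cells (ICN1 on) and from cells given 2 µg/ml doxycycline for 24 hours (ICN1 off), with 1 array per line and condition and 4 arrays in all. Both arms carry both transgenes, and no line without them was treated, so that an effect of doxycycline itself cannot be told apart from loss of ICN1.

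Growth factor receptors act through RAS and a relay of kinases that ends in ERK, and ERK in turn induces genes that shut the relay down. Dual-specificity phosphatases remove the activating phosphates from ERK, while Sprouty and SPRED proteins act higher up, around RAS and RAF. The ETS factors ETV4 and ETV5 are transcribed together with these inhibitors downstream of FGF and EGF receptors, and all of these transcripts are commonly read as a gauge of ERK output. In the mammary gland this pathway takes part in ductal branching and in the growth of the luminal and basal epithelium.

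With ICN1 off, Etv5 was the single gene of the 10 whose change passed the test, and it fell. Its signal was 2.00-fold lower with doxycycline in line 8534 and 2.65-fold lower in line 8542. Dusp5, Spry1 and Spry2 were higher in both lines by 1.26- to 1.69-fold, Spry4, Spred1, Spred2 and Etv4 were lower in both by 1.08- to 2.54-fold, and Dusp4 and Dusp6 went in opposite directions in the 2 lines. The signs of the feedback genes were thus mixed, but with Etv5 alone passing the test they do not show that the genes diverged. By limma, which fits line and treatment together (adjusted p under 0.05 over all probe sets tested), 0 of 10 were called higher, against 4.76% of the 15070 genes tested, and 1 of 10 was called lower, against 6.95%. At an unadjusted p under 0.05 the counts were 3 higher (Dusp5, Spry1 and Spry2), against 12.4%, and 2 lower (Etv5 and Spry4), against 14.1%.

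Of the 10 genes, 2 had opposite signs in the 2 lines, against 32.4% of all genes tested. That leaves 3 higher and 5 lower in both lines, beside 5159 higher and 5025 lower of the 15070 genes tested. More than 2-fold in both lines, the rule of size in the study's methods, was reached by 0 genes upward, against 2.33%, and by 1 gene downward, Etv5, against 4.18%. The median change of the 10 genes was -0.14 on the log2 scale, beside 0.02 for all genes tested. It was 0.03 in line 8534 and -0.15 in line 8542. The p values rest in part on the spread of a gene between 2 lines, which with 1 array each includes the spread between cultures of a line. They rest more on the spread expected at that signal level from all probe sets tested. The fit had 1 residual degree of freedom, to which this moderation added 6.18.

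**Figure D1:**
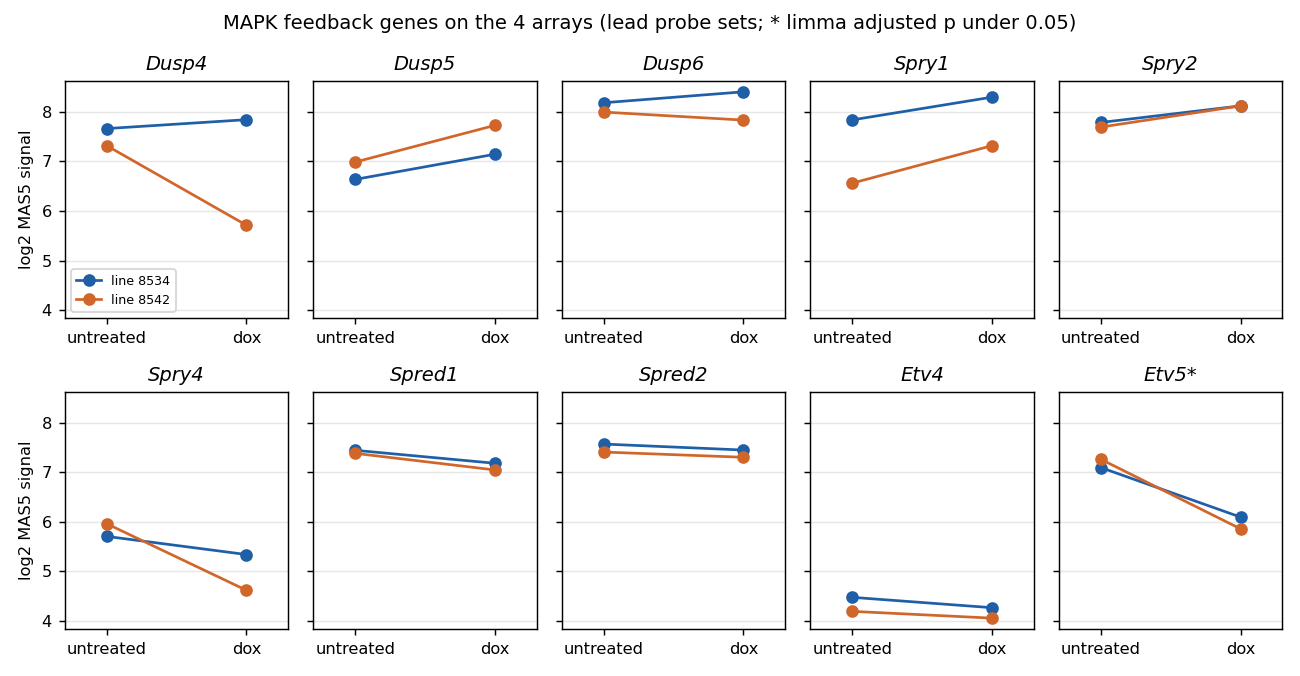
Log2 MAS5 signal (y axis) of the lead probe set of each of the 10 genes on the untreated and the doxycycline (dox) array of line 8534 (blue) and line 8542 (orange), 1 point per array, with lines joining arrays of the same cell line. Etv5, marked with an asterisk, falls in both lines to 5.86 and 6.09, and Dusp4 is lower with doxycycline in line 8542 alone.

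The stretches of DNA around the transcription starts of Etv5, which fell, and of Dusp5 and Spry1, the 2 genes with the lowest p among those higher in both lines, are printed to show what these promoters hold. They are RefSeq windows on mouse build GRCm38.p6 that run from 250 bases before to 50 bases after the start, written 5′ to 3′ on the strand of the gene. RefSeq windows were matched by symbol for 7 of the 10 genes, in 8 windows, and those of Dusp4, Spry4 and Etv4 were not analysed here. Etv5 has 2 starts, at chr16:22439521-22439820 and chr16:22438319-22438618, both on the minus strand, Dusp5 lies at chr19:53528895-53529194 and Spry1 at chr3:37639697-37639996, both on the plus strand. Capitals mark motif matches on either strand.
Etv5, first window: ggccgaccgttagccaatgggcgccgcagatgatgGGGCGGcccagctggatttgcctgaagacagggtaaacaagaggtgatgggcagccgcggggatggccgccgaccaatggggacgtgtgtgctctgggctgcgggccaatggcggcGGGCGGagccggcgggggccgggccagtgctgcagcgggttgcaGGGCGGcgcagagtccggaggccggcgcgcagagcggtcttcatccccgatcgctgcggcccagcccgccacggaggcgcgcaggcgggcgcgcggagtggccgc
Etv5, second window: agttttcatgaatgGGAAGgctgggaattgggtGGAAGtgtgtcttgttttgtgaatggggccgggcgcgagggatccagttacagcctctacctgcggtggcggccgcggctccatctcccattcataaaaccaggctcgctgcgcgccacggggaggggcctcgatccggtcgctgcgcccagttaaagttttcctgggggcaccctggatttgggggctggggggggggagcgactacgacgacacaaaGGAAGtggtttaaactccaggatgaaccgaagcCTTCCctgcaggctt
Dusp5: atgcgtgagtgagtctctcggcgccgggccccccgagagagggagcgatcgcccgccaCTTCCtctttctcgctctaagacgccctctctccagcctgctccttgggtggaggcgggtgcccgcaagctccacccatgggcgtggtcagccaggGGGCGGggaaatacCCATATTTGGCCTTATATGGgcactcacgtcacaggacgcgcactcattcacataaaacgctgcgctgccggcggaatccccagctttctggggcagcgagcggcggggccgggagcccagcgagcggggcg
Spry1: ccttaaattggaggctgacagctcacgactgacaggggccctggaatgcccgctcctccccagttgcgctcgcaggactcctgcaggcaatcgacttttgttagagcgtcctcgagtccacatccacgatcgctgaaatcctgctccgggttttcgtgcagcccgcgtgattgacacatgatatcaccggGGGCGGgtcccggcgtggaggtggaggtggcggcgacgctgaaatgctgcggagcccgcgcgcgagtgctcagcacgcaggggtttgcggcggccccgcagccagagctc

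The motifs searched on both strands were GGAAG, the short core bound by ETS factors, the longer ETS site CCGGAAGT, which holds that core, the AP-1 site TGANTCA, the cyclic AMP response element TGACGTCA, the RBPJ site GTGGGAA through which NOTCH acts, the SP1 site GGGCGG, and the CArG box bound by serum response factor. The first Etv5 window held 3 SP1 sites, at -215, -99 and -55 from the start, and 74% of its bases were G or C. The second held 4 ETS cores and no SP1 site, with 60% G or C. SP1 sites were in 35.7% and ETS cores in 71.4% of all 32851 windows of this length, so that either is common.

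Dusp5 held 2 CArG boxes side by side, at -82 and -72, and this motif was in 1.63% of all windows. It also held an SP1 site at -96 and an ETS core at -192. The Spry1 window had 1 match, an SP1 site at -60. None of the 8 member windows, those of Dusp6, Spry2, Spred1 and Spred2 included, held the long ETS site (3.89% of all windows), the AP-1 site (7.81%), the cyclic AMP response element (1.79%) or the RBPJ site (6.38%). No motif of the 7 searched was in every printed window.

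Among Dusp4, Dusp5 and Dusp6, the phosphatase genes of the set, Dusp5 was the one with like changes in both lines. DUSP5 is a nuclear phosphatase that is specific for ERK and holds it in the nucleus. The log2 signal of Dusp5 (probe set 1437199_at) was 6.64 untreated and 7.15 with doxycycline on the arrays of line 8534, and 6.99 and 7.73 in line 8542. The treated array was thus the higher one in each line, by 1.42- and 1.67-fold, although the untreated level of line 8542 was close to the treated level of line 8534. The mean change was 0.62 ± 0.16 (SD, n = 2 lines), with a limma adjusted p of 0.0738, above the threshold.

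Dusp4 and Dusp6 did not share that pattern. DUSP4 is a nuclear phosphatase induced by ERK, with activity toward other MAP kinases too, and its probe set (1428834_at) read 7.67 untreated and 7.84 with doxycycline in line 8534, but 7.32 and 5.71 in line 8542. The treated array of line 8542 thus stood apart from the other 3, 3.05-fold below its untreated partner, while line 8534 was 1.13-fold higher. The mean change of -0.71 had an SD of 1.26 over the 2 lines and a limma adjusted p of 0.321. Without doxycycline the 2 lines differed 1.27-fold in Dusp4, and with it 4.38-fold, line 8534 being the higher.

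DUSP6 is the cytoplasmic phosphatase most selective for ERK, and Dusp6 is the member most widely used as a readout of ERK activity. Its log2 signals (1415834_at) were 8.19 and 8.41 in line 8534, untreated and treated, and 7.998 and 7.84 in line 8542. All 4 values lay within 0.57 of each other, and 86.5% of the probe sets on the array with the lowest of them were below it. The mean change was 0.03, with a 95% interval of -0.34 to 0.40 and a limma adjusted p of 0.943. Under this model the interval leaves out a 2-fold change of Dusp6 in either direction. Its width rests mostly on the spread expected at that signal level, so it depends on the model.

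Of the Sprouty genes, Spry1 and Spry2 were higher with doxycycline in both lines and Spry4 was lower. Sprouty proteins are induced by growth factors and curb signaling between receptor and RAF. Spry1 (1415874_at) read 7.84 untreated and 8.30 treated in line 8534, and 6.56 and 7.32 in line 8542. The gap between the lines was larger than the change within either, since the untreated level was 2.42-fold higher in line 8534 and the treated level of line 8542 stayed below it. The changes within lines were 1.38- and 1.69-fold, with a mean of 0.61 ± 0.21 (SD, n = 2 lines) and a limma adjusted p of 0.0689.

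Spry2, the Sprouty gene best known from epithelial branching, was higher by similar amounts in both lines. Its lead probe set (1436584_at) read 7.79 untreated and 8.12 treated in line 8534, and 7.70 and 8.12 in line 8542. The mean change was 0.38 ± 0.07 (SD, n = 2 lines), with a limma adjusted p of 0.175, and both treated arrays lay above both untreated ones. A second Spry2 probe set (1421656_at) was also higher in both lines, by 0.51 and 0.44 on the log2 scale, at a much lower signal of 15.8 to 29.7 units.

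For Spry4, whose transcript follows FGF signaling closely in many tissues, the lead probe set (1440867_at) read 5.70 untreated and 5.34 treated in line 8534, and 5.96 and 4.62 in line 8542. The treated arrays were the lower 2 of the 4, by 1.29-fold in line 8534 and 2.54-fold in line 8542, and limma gave an adjusted p of 0.168. A second tested probe set (1445669_at) had changes of -0.70 and -1.22 at 7.47 to 17.4 units. The other 2 Spry4 probe sets were below the filter and went elsewhere: 1422020_at was higher in both lines, by 0.61 and 2.67, at 1.67 to 10.6 units, and 1422021_at had opposite signs. With all 4 probe sets averaged, the change of Spry4 was -0.12 in place of -0.86, so its size depends on the probe sets taken.

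The SPRED genes code for membrane proteins that keep RAF from being activated and that work with neurofibromin on RAS. Spred1 was read by 8 probe sets, of which 7 were tested, and its lead (1423161_s_at) gave 7.44 untreated and 7.18 treated in line 8534, and 7.38 and 7.05 in line 8542. The treated arrays were the lower ones in each line, by 1.20- and 1.26-fold, with a mean change of -0.30 ± 0.05 (SD, n = 2 lines) and a limma adjusted p of 0.347. The 8 probe sets did not all point one way: 5 were lower in both lines, 2 (1443652_x_at and 1452911_at) were higher in both by at most 0.33, and 1 (1423160_at) had opposite signs.

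Spred2 changed least of the members apart from Dusp6. Its lead probe set (1434403_at) read 7.57 and 7.45 in line 8534, untreated and treated, and 7.41 and 7.30 in line 8542. The mean change was -0.11, with a 95% interval of -0.49 to 0.26 and a limma adjusted p of 0.748. Of its 5 probe sets, 4 were lower in both lines, with mean changes down to -1.06 in the faintest, which was not tested, and 1 (1441415_at) had opposite signs.

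**Figure D2:**
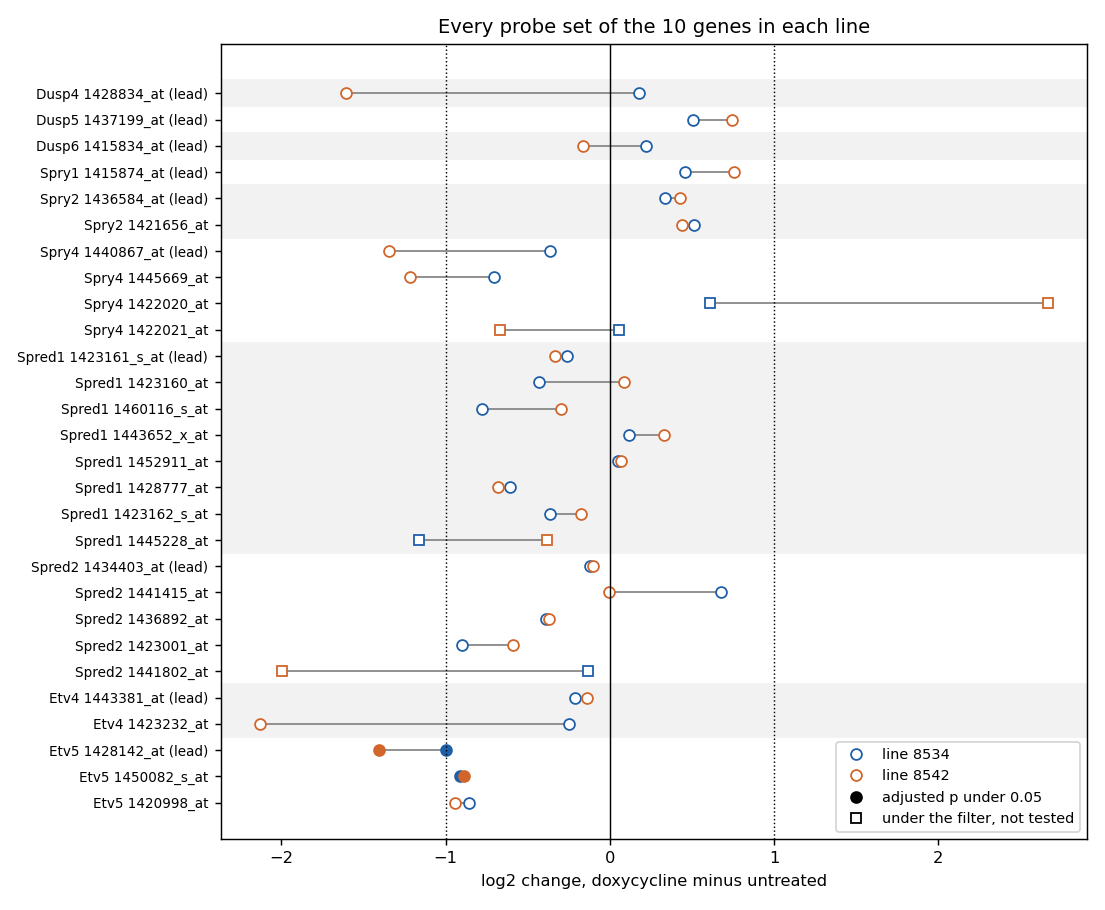
Log2 change, doxycycline minus untreated (x axis), of all 28 probe sets of the 10 genes (y axis) in line 8534 (blue) and line 8542 (orange), with a grey bar joining the 2 lines, dotted lines at a 2-fold change, filled symbols for an adjusted p under 0.05 and squares for probe sets under the filter. The 3 Etv5 probe sets lie between -0.86 and -1.40 in both lines, whereas those of Spry4 run from -1.34 to 2.67.

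Etv5 was the member that fell, and its 3 probe sets had like changes. ETV5 is an ETS activator of the PEA3 group that acts downstream of receptor tyrosine kinases. The lead probe set (1428142_at) read 7.09 untreated and 6.09 with doxycycline in line 8534, and 7.26 and 5.86 in line 8542. The 2 treated arrays lay below the 2 untreated ones by more than the lines differed from each other in either condition.

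The mean change of Etv5 was -1.20 ± 0.29 (SD, n = 2 lines), a 2.30-fold lower signal, with a 95% interval of -1.68 to -0.72 and a limma adjusted p of 0.0127. In line 8534 the change was 2.00-fold, at the limit of the 2-fold rule, and line 8542 was clear of it at 2.65-fold. The second probe set (1450082_s_at) gave changes of -0.91 and -0.89 (limma adjusted p = 0.0449), and the third (1420998_at) gave -0.86 and -0.94 (adjusted p = 0.0516). Signals of these 2 probe sets were 77.2 to 92.9 units untreated and 42.6 to 49.6 units treated. The limma call of Etv5 was lost when the model did not let the expected spread follow the signal level (adjusted p = 0.248) and when the cell line was not used as a block (adjusted p = 0.124).

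Etv4, the close relative of Etv5 in the PEA3 group, was faint and its change small on the lead probe set. That probe set (1443381_at) read 4.47 and 4.26 in line 8534, untreated and treated, and 4.19 and 4.05 in line 8542, which is 16.6 to 22.2 units. The mean change was -0.17, with a wide 95% interval of -1.18 to 0.83 and a limma adjusted p of 0.867. On the other Etv4 probe set (1423232_at) line 8534 went from 4.13 to 3.88, and line 8542 from 4.98 to 2.85. Line 8542 was thus 4.37-fold lower there and line 8534 1.19-fold, with a limma adjusted p of 0.308.

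Over all 28 probe sets, 7 were higher and 16 lower in both lines, and 5 had opposite signs. Probe sets of 1 gene are not independent, and of the 16, 5 were of Spred1 and 4 of Spred2. The same counts over all probe sets were not taken, so these show no lean of the set. Limma called 0 of the 24 tested higher, against 3.69% of all probe sets tested, and 2 lower, both of Etv5, against 5.54%. More than 2-fold lower in line 8542 were Dusp4, Spry4 and Etv5, 3 of the 10 genes, against 8.82% of genes tested, and in line 8534 only Etv5 passed that size. Whether the lines differed in these responses was not tested, since 4 arrays leave nothing to estimate the error of such a difference from.

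**Figure D3:**
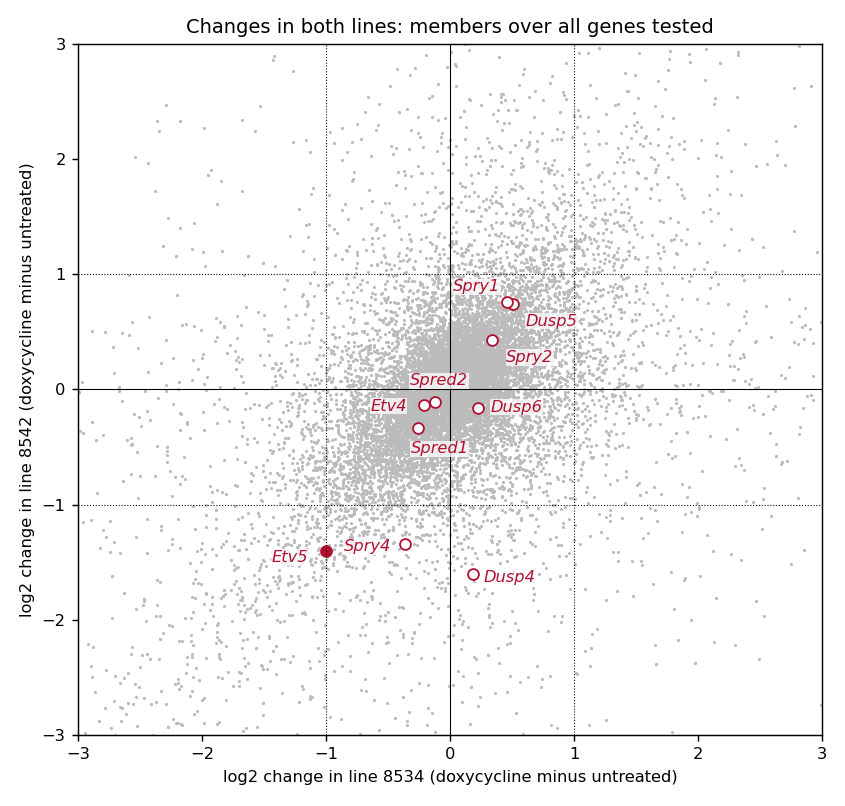
Log2 change with doxycycline in line 8534 (x axis) against that in line 8542 (y axis) for the 15070 genes tested (grey points, 313 of them outside the range of -3 to 3 shown) and for the 10 MAPK feedback genes (red rings, filled where the adjusted p was under 0.05), with dotted lines at a 2-fold change. Etv5 lies in the corner below 2-fold in both lines, Dusp4 and Spry4 pass it in line 8542 alone, and the other 7 lie inside the dotted square.

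The lines kept their untreated differences in some of these genes and not in others. Spry1 was 2.42-fold higher in line 8534 than in line 8542 untreated and 1.97-fold with doxycycline. Spry2 differed by 1.07-fold untreated and 1.00-fold treated, and Spred1, Spred2 and Etv5 by no more than 1.18-fold in either condition. Dusp4 was the member whose difference between lines grew most.

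Of the other feedback genes of the pathway, the few that passed the test rose, and most were not called. Among 6 tested of 7 other MAPK phosphatases, 2 were called higher and 0 lower. Over all genes tested, 4.76% were called higher and 6.95% lower, so 0 lower among so few genes says little about direction. Dusp7, another ERK-selective phosphatase of the cytoplasm, read 47.9 units untreated and 183 treated in line 8534, and 10.7 and 76.5 units in line 8542, a rise of 3.82- and 7.16-fold (limma adjusted p = 0.00369). Dusp16, which acts mainly on the stress kinases JNK and p38, rose 1.39- and 1.84-fold (limma adjusted p = 0.0336). Dusp2 had changes of -0.41 and -1.17 and Dusp1 of 0.10 and 0.88 on the log2 scale, neither of them called.

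Among 14 tested of 16 other feedback regulators, 2 were called higher and 0 lower, with a median change of 0.31. The shares over all genes tested were 4.76% higher and 6.95% lower. Errfi1 (MIG6), which binds and inhibits the EGF receptor, read 285 units untreated and 1056 treated in line 8534, and 377 and 1195 units in line 8542, 3.70- and 3.17-fold higher (limma adjusted p = 0.000568). Cblb, a ubiquitin ligase that sends receptors for degradation, rose 1.42- and 1.72-fold (limma adjusted p = 0.0435). Flrt3, at changes of -1.82 and -0.15, and Rgs2, at 0.10 and 1.19, were not called. Both were faint, Flrt3 at 5.11 to 40.6 units and Rgs2 at 8.30 to 20.1.

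Of 21 genes tested of 29 listed from RAS to ERK, 0 were called higher and 2 lower, with a median change of 0.05, beside shares of 4.76% higher and 6.95% lower over all genes tested. These were the scaffold gene Ksr1, 1.77- and 1.89-fold lower, and the adaptor gene Gab1, 1.48- and 1.41-fold lower (limma adjusted p = 0.0384 and 0.0286). The adaptor gene Frs3 was 5.57-fold higher in line 8534, from a faint 7.27 units to 40.5, and 1.01-fold in line 8542. Rps6ka5, a kinase downstream of ERK, had changes of -0.39 and -0.91, and neither gene was called.

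Receptors and ligands changed in both directions. Of 16 growth factor receptors tested of 17, 3 were called higher and 1 lower, beside 4.76% higher and 6.95% lower over all genes tested. Met, the receptor of hepatocyte growth factor, rose 3.07- and 4.04-fold (limma adjusted p = 0.00388), Epha2 1.89- and 1.56-fold and Fgfr1 1.501- and 1.72-fold, while Egfr, which takes EGF and its relatives, fell 1.44- and 1.56-fold (limma adjusted p = 0.0339). Pdgfra, at changes of -2.53 and -1.28, and Fgfr2, at 0.41 and 1.06, were not called. Pdgfra was faint, at 3.63 to 23.6 units.

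Of 18 ligands tested of 22, 1 was called higher and 3 lower, beside 4.76% higher and 6.95% lower over all genes tested. Fgf15, an FGF that signals to FGFR4, fell to 7.56 units from 380 in line 8534, and to 16.0 units from 677 in line 8542 (limma adjusted p = 7.86e-05), and Kitl, the ligand of KIT, fell 5.79- and 6.39-fold (adjusted p = 0.00049). Pdgfa fell 1.53- and 1.88-fold, and Pdgfb rose 3.37- and 3.59-fold (limma adjusted p = 0.000584). Epgn, with changes of -1.17 and -1.70, and Nrg1, with 1.75 and 0.82, were not called. Epgn was faint, at 8.48 to 27.5 units.

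Transcripts induced by ERK changed in both directions. Of 26 tested, 8 were called higher and 3 lower, with a median change of 0.04. The shares over all genes tested were 4.76% higher and 6.95% lower. Fosl2, a component of AP-1, rose 2.86- and 3.67-fold and Btg2, an inhibitor of proliferation, 2.55- and 2.34-fold (limma adjusted p = 0.00102 and 0.00175). Ccnd1, the cyclin of G1, fell 7.13- and 7.35-fold and Myc 2.11- and 2.75-fold (limma adjusted p = 7.86e-05 and 0.00465). Myc is also in the list of NOTCH targets. Egr3, at changes of -0.14 and -1.50, and Klf6, at 0.64 and 0.41, were not called.

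Over the 6 lists, 99 of 115 genes were tested, each once, and 15 were called higher and 9 lower, with a median change of 0.07, beside shares of 4.76% higher and 6.95% lower over all genes tested. The share called lower in the lists was thus near that of all genes, and the share called higher was above it. The lists were chosen with earlier results of these data known. Without letting the spread follow the signal level 0 were called in either direction, and without the line as a block 0 higher and 3 lower.

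**Figure D4:**
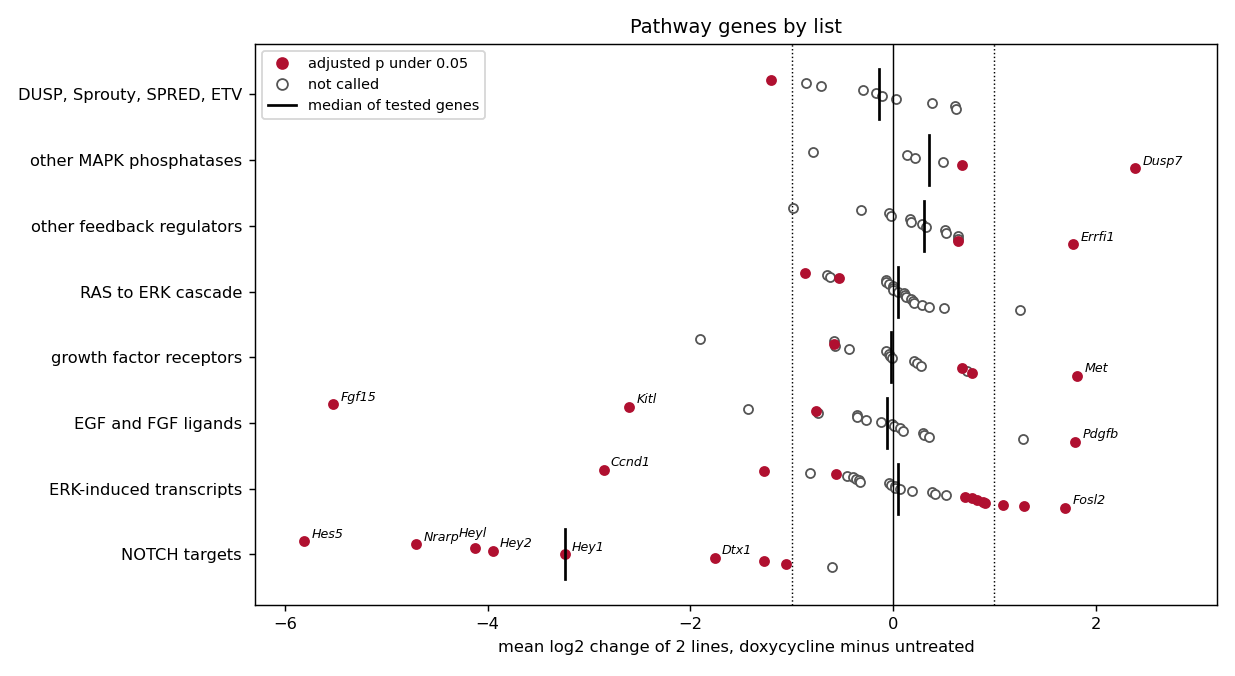
Mean log2 change over the 2 lines, doxycycline minus untreated (x axis), of each tested gene of the MAPK feedback genes, of 6 lists of the pathway and of NOTCH targets (y axis), with red points for an adjusted p under 0.05, open points for genes not called, black bars at the median of each list and dotted lines at a 2-fold change. The 10 feedback genes lie within -1.20 and 0.62, whereas single genes of the 6 pathway lists reach -5.53 (Fgf15) and 2.39 (Dusp7), and Hes5 among the NOTCH targets -5.81.

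The arrays were alike in overall signal, with trimmed means of 97.7 to 102 units, and in the 3′ to 5′ balance of β-actin, with log2 differences of 0.25 to 0.30. ICN1 loss was visible in both lines, where 8 of 9 NOTCH targets were called lower and Nrarp was 21.6- and 31.6-fold lower. Hey1 was 11.8- and 7.54-fold lower and Dtx1 3.07- and 3.73-fold lower. The luminal keratin Krt8 was at 3467 to 7165 units in both lines. The basal keratin Krt14, untreated and treated, was at 1379 and 869 units in line 8534 and at 15.9 and 10.0 units in line 8542. The basal list sums were 6186 and 9917 units in line 8534 and 287 and 371 in line 8542. Acta2 made up most of the rise in line 8534, from 3012 to 6588 units, and was not called (limma adjusted p = 0.0688). Krt5, at 15.3 to 52.9 units, and Trp63, at 7.53 to 17.4, were faint in both lines. Beside the changes of the feedback genes, 5 of 11 luminal markers tested were called higher and 2 lower, 1 of 8 basal markers higher (Cnn1), 1 of 10 fibroblast markers higher (Postn), 0 of 9 leukocyte markers, and 1 of 5 endothelial markers lower (Tek), and the 1 adipocyte marker tested was not called, beside 4.76% called higher and 6.95% lower over all genes tested. In the basal, fibroblast and endothelial lists these are single genes. Cnn1 in line 8542 went from 1.76 to 7.22 units, the first below the 20th percentile of 5.52 units. Krt14 was 1.59-fold lower with doxycycline in each line and was not called (limma adjusted p = 0.0635). The fibroblast list sums were 1327 and 462 units untreated and 4061 and 2285 units treated, in lines 8534 and 8542 in turn. Postn made up most of the treated sums, at 2880 and 2092 units, and was at 409 and 264 units untreated. Untreated line 8534 also held Col1a2 at 288 units and Pdgfrb at 210, against 64.3 and 6.96 in line 8542. The leukocyte list sums were 464 and 403 units untreated and 651 and 407 treated, in lines 8534 and 8542 in turn, with the defining marker Ptprc at 6.08 to 7.20 units on all arrays and Lyz2 at 101 and 214 units in line 8534 and 22.5 and 32.2 in line 8542 (limma adjusted p = 0.0984). The part of these shifts in the changes of Etv5 and the other members was not tested, and in RNA from whole cultures fewer cells of a type and less RNA per cell cannot be told apart.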

How the data were processed

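Total RNA of cell lines 8534 and 8542, untreated or given doxycycline, was hybridized to 4 Affymetrix arrays, 1 per line and condition. The authors ran MAS5 on the scans and deposited log2 values of its scaled signal. Its version and scaling target were not given in the sources used here. Detection calls were not used. The methods name an A design of the array, whereas the values cover 45101 probe sets. After 64 controls were left out, 34945 probe sets had 1 gene symbol, 932 several and 9160 none. Only the first were named (18193 genes), and the reference gene table changed 0 symbols.

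The change was doxycycline minus untreated within each line, with no floor, pseudocount or rescaling. limma 3.58.1 (R 4.3.3) was fitted with terms for line and treatment to the 33778 probe sets whose mean log2 value reached the 25th percentile, with eBayes, an intensity trend (the expected spread follows the signal level) and Benjamini-Hochberg adjustment over all of them. The fit had 1 residual degree of freedom, to which moderation added 6.18. The line pairs the arrays, since an untreated and a treated array share 1 cell line, and their deviations from the condition means correlated (r = 0.36 across tested probe sets). The number of arrays limits the precision of every value. The code was tested on simulated data.

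The members and gene lists were chosen with earlier results of these data known. The genes named were all members with all their probe sets and up to 4 called genes with the largest mean change of each list. In the pathway lists up to 2 tested genes not called were added, with Hey1, Nrarp and Dtx1 as a check on ICN1. Further cell type markers were named outside this rule to describe the lines. Of 10 housekeeping genes tested, 1 was called higher (B2m) and 1 lower (Tfrc). Promoter windows came from RefSeq on GRCm38.p6 and are written on the strand of the gene, and protein sequences were not used here. Alternatives were no filter on level and one at the 50th percentile, quantile normalization, median centring, a floor or a pseudocount of 5.52 units, the 20th percentile, the mean of all probe sets of a gene, a fold rule of 1.5, no intensity trend, no block and leaving out each line.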

Additional observations from a re-analysis of the deposited data

Results flagged for a closer look

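Probe sets of 5 of the 10 genes, 5 of the 28 probe sets, moved in opposite directions in the 2 lines. The difference between lines was not tested for any of them. A gene with several probe sets is counted here more easily. By lead probe set 2 of the 10 genes had opposite signs, against 32.4% of all genes tested. The change in line 8542 minus that in line 8534 was -1.79 on the log2 scale for Dusp4 (1428834_at, changes of 0.18 in line 8534 and -1.61 in line 8542). For Dusp6 (1415834_at) it was -0.38, from changes of 0.22 and -0.16. For the Spry4 probe set 1422021_at, which lay under the filter, it was -0.73, from 0.06 and -0.67. The Spred1 probe set 1423160_at gave 0.52, from -0.43 and 0.09, and the Spred2 probe set 1441415_at gave -0.69, from 0.68 and -0.01. With 1 array per line and condition, the spread of a line's own arrays is not known. Dusp4 was the only one of these whose change passed 2-fold in a line.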

How the results depend on the processing

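Of 89 values of the 10 genes recomputed with both lines kept, 86 kept their direction and their side of the threshold, 2 no longer passed it, 1 newly passed it and 0 reversed. The limma call of Etv5 was kept with other filters, scalings, a floor, a pseudocount and the mean of its probe sets, over which and the settings below its adjusted p ran from 0.00705 to 0.248 and its change from -1.21 to -1.002. Without an intensity trend it was lost (adjusted p = 0.248, 0 members called lower, and 0 pathway genes called higher and 0 lower in place of 15 and 9), and no gene of all those tested passed there, the lowest adjusted p being 0.223. Without the line as a replicate block it was also lost (adjusted p = 0.124, 0 members called lower, 0 pathway genes higher and 3 lower), and 3 genes were then called higher and 55 lower of all tested, against 717 and 1047 with the block. With a filter at the 50th percentile 1 member was called higher, Spry1 (adjusted p = 0.0492), and Etv4 was not tested. The count more than 2-fold lower in both lines, 1 (Etv5), was 0 with quantile normalization, 0 with the pseudocount and 0 with the mean of all probe sets, since Etv5 lay at the limit in line 8534. It ran from 1 to 3 with each line left out in turn, the higher value from line 8542 alone, and the median change of the members then ran from -0.15 to 0.029. With a single line, the changes of Dusp4 (0.18 in line 8534, against a mean of -0.71) and of Dusp6 (-0.16 in line 8542, against 0.03) turned sign, and those of the other 8 genes did not. Other scalings moved the median of all genes by less than 0.1 on the log2 scale. Leaving out a line leaves no residual degrees of freedom, so those are values with no test. Low signal limits Etv4 and the fainter probe sets of Spry2, Spry4, Spred1 and Spred2, and the causes of the lost calls were not tested.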
